A study of Homo sapiens with 60 samples.

Results

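The enzymes and carriers that take glucose through glycolysis, the pentose phosphate pathway and glycogen were followed at the RNA level across 3 human breast lines and 4 treatments. The members were a list of 35 genes fixed by symbol, not by their values, and 33 of the 35 had a value among the 19775 genes of the array table. The 2 listed carriers that move lactate out of the cell were not analysed here. Each gene was read from its brightest probe set, on a log2 scale in which a difference of 1 is a doubling of signal.

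HB4a is a line from normal breast epithelium, and C5.2 is HB4a transfected with a full-length cDNA of ERBB2 (HER-2). SKBR3 is a mammary adenocarcinoma line that overexpresses HER-2. Each line received vehicle (DMSO), 30 nM doxorubicin, 20 nM rapamycin, or both drugs at those doses, with 5 arrays per group from experiments numbered 1, 2, 3, 4 and 6, which makes 60 arrays. Drugs were added a day after seeding, and no time of exposure is given in the labels. All groups grew in RPMI with serum and glutamine, but only the medium of HB4a and C5.2 held insulin and hydrocortisone, and SKBR3 was seeded more densely. A difference between SKBR3 and the other lines therefore cannot be told apart from medium and density. C5.2 is a transfected derivative kept as a line of its own, so its difference from HB4a cannot be told apart from the selection of that line.

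Glycolysis splits glucose into pyruvate with a net gain of ATP. Hexokinase traps glucose in the cell, and phosphofructokinase commits it to the pathway under the control of fructose 2,6-bisphosphate. Lower glycolysis here means the steps from aldolase to pyruvate kinase, of which those from GAPDH onward recover the energy. Lactate dehydrogenase then regenerates NAD+. The pentose phosphate pathway branches off at glucose 6-phosphate and supplies NADPH and ribose, and glycogen is the storage form of glucose. Rapamycin inhibits mTORC1, a kinase complex known for promoting the expression of glycolytic and pentose phosphate genes, in part through HIF-1 and SREBP, and doxorubicin is a DNA-intercalating poison of topoisomerase II.

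Array medians lay between 1.41 and 1.71 on the log2 scale. ERBB2 bore out the line labels: its vehicle arrays read 6.34 to 6.86 in HB4a, 11.63 to 12.23 in C5.2 and 10.87 to 11.72 in SKBR3. Of the luminal markers, 7 of 8 were above log2 5 on at least 5 arrays in HB4a, 6 in C5.2 and 6 in SKBR3. Of 5 measured basal markers 4, 3 and 2 were, and of 6 mesenchymal markers 4, 4 and 0. None of 4 leukocyte or 5 endothelial markers was, in any line. The arrays of experiment 1 in HB4a and SKBR3, those of experiment 2 in C5.2 and the HB4a rapamycin array of experiment 4 stood apart from their groups. On SKBR3 vehicle array 3, 9 genes that are high in HB4a and C5.2 and low in SKBR3 lay a median of 3.53 above the other vehicle arrays, and among the members ENO2 read 2.33 there against 0.28 to 0.91. Counts without these arrays (the first set together, SKBR3 vehicle array 3 on its own) stand beside the comparisons they change.

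A member was tested where it was above log2 5 on at least 5 arrays of the fit, and was called at an adjusted p under 0.05 (limma, Benjamini-Hochberg over all genes tested). This left 30 members in HB4a (not SLC2A3, PFKFB2 or RPE), 28 in C5.2 (not SLC2A3, HK2, PFKFB2, ALDOC or RPE) and 30 in SKBR3 (not SLC2A3, PFKFB4 or ENO2). PFKFB3 in SKBR3 passed only through rapamycin and both-drug arrays. ALDOC in HB4a and PFKFB4 in C5.2 passed with no rapamycin array above log2 5. The filter favoured the rapamycin changes of these members, so those changes are given as a description. Counts of called members include them. Since RNA came from whole cultures, a lower level in every cell and a larger share of low-level cells cannot be told apart.

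With rapamycin, TPI1, PGK1, PGAM1, ENO1 and LDHA, all of lower glycolysis and the lactate step, fell in all 3 lines. In HB4a 11 of 30 members fell and 0 rose, where 1.1% of all genes tested fell and 2.08% rose. In C5.2 13 of 28 fell and 0 rose, against 14.6% and 2.83% of all genes. In SKBR3 8 of 30 fell and 2 rose, against 10.8% and 7.48%. The median change of the tested members was -0.31 in HB4a, -0.24 in C5.2 and -0.18 in SKBR3, beside 0.01, -0.08 and -0.03 for all genes tested. In a fit blocked by experiment, 1 member rose and 16 fell in HB4a, beside 16.3% of all genes changed. With it 3 rose and 17 fell in C5.2, beside 44.2%, and 2 rose and 10 fell in SKBR3, beside 41.8%. Rapamycin and vehicle arrays paired by number, weakly in C5.2 (lowest r 0.461, 0.105 and 0.311 in HB4a, C5.2 and SKBR3). The fits also held the both-drug arrays, which did not pair with vehicle in HB4a (-0.536) or C5.2 (-0.1). Blocked calls in HB4a and C5.2 are therefore less certain. The block added PGLS (higher) and HK1, GPI, GAPDH, GYS1 and GBE1 (lower) in HB4a, PGLS, LDHB and UGP2 (higher) and GPI, PFKL, PFKM and GAPDH (lower) in C5.2, and ALDOA and LDHB (lower) in SKBR3. With 1 array left out, the HB4a count lay between 6 and 12, with 7 without rapamycin array 2 or vehicle array 3 and 6 without vehicle array 4 or 6. Without the arrays that stood apart, 9, 16 and 9 members changed in HB4a, C5.2 and SKBR3, and 7, 13 and 8 of these were called in the full set. In that setting 171 of 5944, 1597 of 6209 and 1023 of 5852 genes changed. The calls lost were ALDOA, ENO1, PGM1 and PKM in HB4a and GAPDH and PFKP in SKBR3. With no filter, ALDOA, ALDOC, PGAM1, PGM1 and PKM in HB4a, ENO1 in C5.2 and GAPDH in SKBR3 were no longer called.

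**Figure D1:**
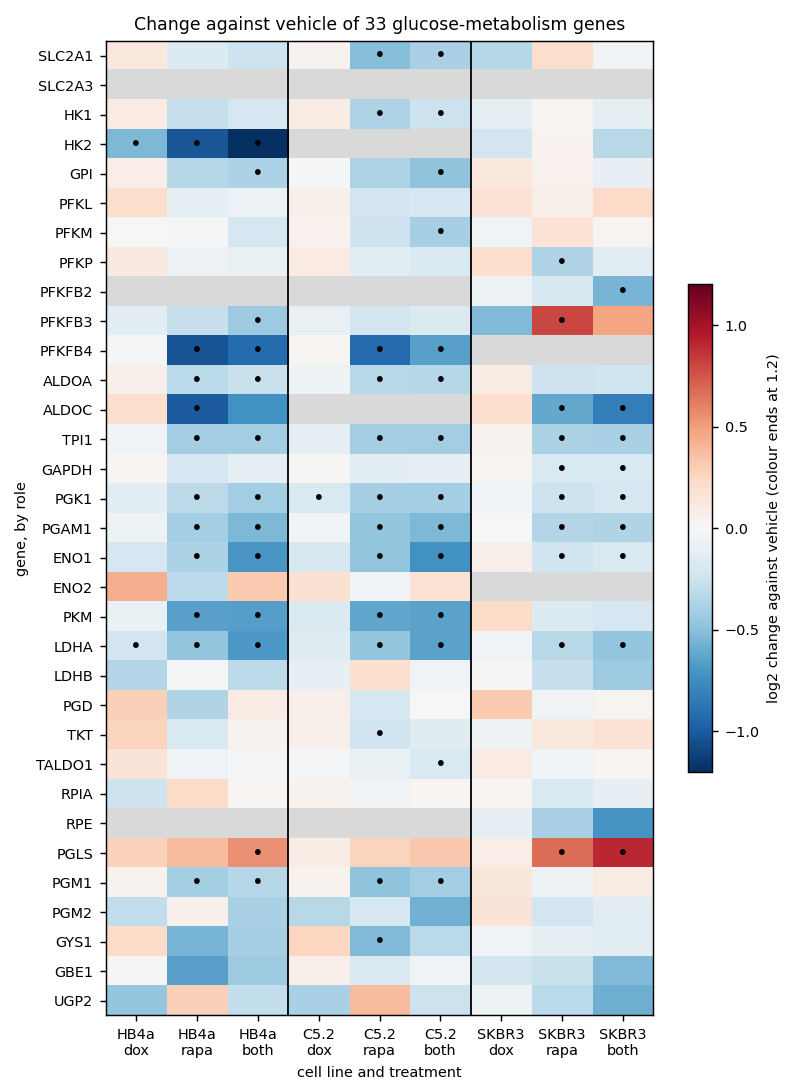
Log2 change against vehicle of the 33 measured genes (rows, by role) under doxorubicin, rapamycin and both drugs in each line (columns). Blue is lower and red higher, the colour ends at 1.2, a dot marks a call and grey marks a gene that was not tested. The rows from TPI1 to LDHA hold dots under rapamycin and both drugs in all 3 lines, except GAPDH, ENO2 and PKM, and the doxorubicin columns hold 3 dots in all.

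Of the 5 genes that fell in every line, TPI1 interconverts the triose phosphates, PGK1 makes the first ATP of the payoff phase, PGAM1 moves the phosphate of phosphoglycerate, ENO1 makes phosphoenolpyruvate and LDHA reduces pyruvate to lactate. They were 5 of 26 members tested in every line. Of all 4673 genes tested in every line, 19 (0.407%) fell in all 3. Another 5 members, ALDOA, ALDOC, PFKFB4, PGM1 and PKM, fell in 2 lines, and 7 fell in 1 line. The shares of all genes that fell in 2 lines or in 1 line were not computed.

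Promoters of 3 of these 5 genes are shown because they hold the core letters of the hypoxia response element, ACGTG or GCGTG, to which HIF-1 binds. Each sequence is the 250 bases before the gene's start in RefSeq on GRCh38.p14, read 5′ to 3′ on the gene's strand, with either word in capitals wherever it occurs on either strand (CACGT and CACGC are the reversed forms). ENO1 is at chr1:8878687-8878936 on the minus strand, LDHA at chr11:18394313-18394562 on the plus strand and PGK1 at chrX:78103998-78104247 on the plus strand.
ENO1: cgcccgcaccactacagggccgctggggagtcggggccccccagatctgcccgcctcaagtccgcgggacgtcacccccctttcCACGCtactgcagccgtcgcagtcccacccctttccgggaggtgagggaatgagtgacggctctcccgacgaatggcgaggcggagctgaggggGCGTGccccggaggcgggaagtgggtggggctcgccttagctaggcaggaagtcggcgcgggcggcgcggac
LDHA: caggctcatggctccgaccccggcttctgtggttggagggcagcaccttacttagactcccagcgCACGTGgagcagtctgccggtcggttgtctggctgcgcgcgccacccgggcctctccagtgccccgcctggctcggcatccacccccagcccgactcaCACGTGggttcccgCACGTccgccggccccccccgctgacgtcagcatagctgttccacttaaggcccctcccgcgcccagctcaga
PGK1: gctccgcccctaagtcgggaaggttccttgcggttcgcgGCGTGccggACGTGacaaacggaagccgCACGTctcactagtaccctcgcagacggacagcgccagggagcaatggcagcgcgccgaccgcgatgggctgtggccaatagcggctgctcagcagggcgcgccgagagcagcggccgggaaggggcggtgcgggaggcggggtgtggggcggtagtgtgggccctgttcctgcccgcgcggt
The ENO1 window held GCGTG 2 times and no ACGTG, and the PGK1 window held ACGTG 2 times and GCGTG 1 time. The LDHA window held ACGTG 5 times over both strands, in 3 stretches, because CACGTG reads the same on both strands and is counted on each. The windows listed for PGAM1 and the more upstream of the 2 listed for TPI1 held neither word and are not shown, and the other TPI1 window held both. The PGAM1 window lay inside the gene, so the bases before its start were not read. The more upstream TPI1 window ran across the start of that gene. Over all 35116 RefSeq windows of this length, from 27305 genes, 43.2% held either word on either strand, 18.5% held ACGTG and 32.2% held GCGTG. Over the 55 windows of 31 members, 54.5% held either word, 36.4% held ACGTG and 36.4% held GCGTG. These are matches of letters. No binding was measured in this series.

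TPI1 in HB4a read 11.01, 11.12, 11.15, 11.10 and 11.23 in vehicle (arrays 1, 2, 3, 4 and 6, the order used throughout) and 10.57, 10.68, 10.77, 10.73 and 10.78 with rapamycin. The groups did not overlap, and the change was -0.42 ± 0.07 (SE, adjusted p 0.00108, limma). In C5.2 it read 10.78, 10.67, 10.78, 10.74 and 10.86 in vehicle and 10.38, 10.56, 10.31, 10.19 and 10.35 with rapamycin, a change of -0.41 ± 0.08 (adjusted p 0.00252, limma). In SKBR3 it read 10.46, 10.19, 10.20, 10.27 and 10.41 in vehicle and 10.03, 9.76, 9.91, 9.94 and 10.00 with rapamycin, a change of -0.38 ± 0.11 (adjusted p 0.0161, limma). Every rapamycin array was below every vehicle array in each line. The SKBR3 call was lost without rapamycin array 2 (adjusted p 0.0503).

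PGK1 fell in each line with little spread between arrays. In C5.2 it read 11.08, 11.18, 11.08, 11.05 and 11.10 in vehicle and 10.72, 10.69, 10.66, 10.66 and 10.77 with rapamycin, a change of -0.40 ± 0.04 (adjusted p 8.15e-06, limma). In HB4a it fell from 11.29, 11.32, 11.34, 11.31 and 11.45 to 10.96, 10.93, 11.10, 11.13 and 11.05 (-0.31 ± 0.05, adjusted p 0.00195, limma). In SKBR3 it fell from 10.73, 10.75, 10.64, 10.51 and 10.64 to 10.47, 10.41, 10.37, 10.35 and 10.43 (-0.25 ± 0.06, adjusted p 0.00392, limma). The groups did not overlap in any of the lines.

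PGAM1 in C5.2 read 10.86, 10.83, 10.69, 10.77 and 10.78 in vehicle, and 10.42, 10.39, 10.19, 10.25 and 10.30 with rapamycin. The change of -0.47 ± 0.07 (adjusted p 0.000133, limma) separated the groups. In SKBR3 it fell from 9.58, 9.66, 9.48, 9.48 and 9.44 to 9.18, 9.25, 9.17, 9.15 and 9.15 (-0.35 ± 0.08, adjusted p 0.00289, limma), again without overlap. In HB4a it fell from 10.44, 10.47, 10.77, 10.68 and 10.64 to 9.97, 10.09, 10.36, 10.34 and 10.17 (-0.41 ± 0.10, adjusted p 0.0253, limma). The HB4a call was lost without any 1 of rapamycin arrays 1, 2 and 6 or vehicle arrays 3, 4 and 6, with changes of -0.46 to -0.36 and an adjusted p up to 0.0843 (limma).

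ENO1 in HB4a read 10.30, 10.27, 10.28, 10.26 and 10.50 in vehicle and 9.85, 10.13, 9.98, 9.61 and 10.11 with rapamycin (-0.38 ± 0.09, adjusted p 0.0125, limma). With both drugs it read 9.61, 9.64, 9.67, 9.50 and 9.70, below every vehicle array by a change of -0.70 ± 0.09 (adjusted p 6.74e-06, limma). In C5.2 it read 10.27, 10.12, 9.83, 10.15 and 9.97 in vehicle, 9.65, 9.72, 9.37, 9.55 and 9.72 with rapamycin, and 9.47, 9.62, 8.98, 9.23 and 9.38 with both drugs. The C5.2 changes were -0.47 ± 0.14 (adjusted p 0.0247, limma) and -0.73 ± 0.14 (adjusted p 0.000959, limma), and neither treated group overlapped vehicle. In SKBR3 the falls were smaller and even, from 10.73, 10.70, 10.70, 10.63 and 10.76 to 10.43, 10.38, 10.48, 10.50 and 10.51 with rapamycin (-0.24 ± 0.04, adjusted p 0.000581, limma). With both drugs SKBR3 read 10.56, 10.52, 10.47, 10.46 and 10.58 (-0.18 ± 0.04, adjusted p 0.00612, limma). The C5.2 rapamycin call was lost without any 1 of rapamycin arrays 3 and 4 or vehicle arrays 1, 2 and 4, with changes of -0.53 to -0.41 and an adjusted p up to 0.0756. With the mean of all ENO1 probe sets the rapamycin call was lost in all 3 lines and the call with both drugs in C5.2 and SKBR3. The HB4a rapamycin call was lost also without the arrays that stood apart.

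LDHA in HB4a read 11.61, 11.49, 11.62, 11.61 and 11.50 in vehicle and 11.25, 10.95, 11.31, 10.99 and 11.04 with rapamycin (-0.46 ± 0.07, adjusted p 0.000359, limma). With both drugs it read 10.93, 11.05, 10.69, 10.90 and 10.81 (-0.69 ± 0.07, adjusted p 4.91e-07, limma). In C5.2 it read 11.30, 10.98, 11.09, 11.17 and 11.15 in vehicle, 10.81, 10.55, 10.56, 10.64 and 10.78 with rapamycin and 10.80, 10.24, 10.31, 10.48 and 10.67 with both. Those changes were -0.47 ± 0.10 (adjusted p 0.0029, limma) and -0.64 ± 0.10 (adjusted p 0.000131, limma). In SKBR3 it read 11.45, 11.29, 11.28, 11.39 and 11.34 in vehicle, 11.11, 10.98, 10.94, 11.03 and 11.04 with rapamycin and 11.06, 10.89, 10.83, 10.91 and 10.77 with both. Those changes were -0.33 ± 0.06 (adjusted p 0.000706, limma) and -0.46 ± 0.06 (adjusted p 2.71e-05, limma). None of the 6 treated groups overlapped its vehicle group.

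LDHB, the heart-type subunit of the same enzyme, was not called under any treatment without the block. Blocked by experiment it rose with rapamycin in C5.2 (0.20 ± 0.08, adjusted p 0.0471, limma), and in SKBR3 it fell with rapamycin (-0.28 ± 0.10, adjusted p 0.0242, limma) and with both drugs (-0.44 ± 0.10, adjusted p 0.000796, limma). Its mean was 9.92 in HB4a vehicle with an SD of 0.40, and 9.91 with rapamycin. In C5.2 the means were 10.21 and 10.41, and in SKBR3 9.34 and 9.06. The log2 ratio of LDHA to LDHB on each array fell in C5.2 by 0.67 with rapamycin and by 0.59 with both drugs (exact permutation test, 2-sided, 5 against 5 arrays, adjusted p 0.0295 each over 26 ratio tests, where 0.00794 is the smallest unadjusted p possible). The call with both drugs was lost without C5.2 vehicle array 2 or 6. In HB4a the ratio changed by -0.45 with rapamycin (exact permutation test, adjusted p 0.271), and in SKBR3 by -0.05 (adjusted p 0.91). The LDHB probe set is of the kind (_x_at) that can match related transcripts, as are those of GAPDH, ALDOA and PFKL, so these 4 levels are less certain. Those of TPI1, PGK1, PGAM1, ENO1 and LDHA are _s_at sets, and whether they match other genes was not checked. The 2 probe sets of LDHB differed in sign in C5.2 with both drugs and in HB4a with rapamycin.

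**Figure D2:**
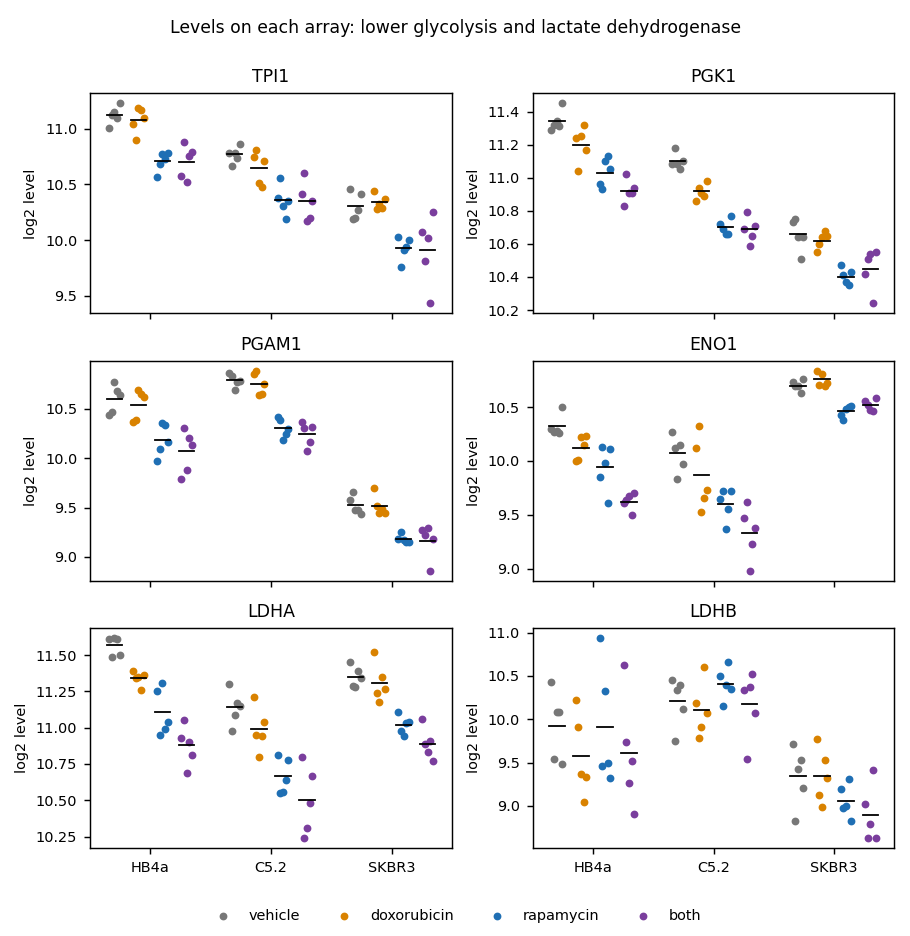
Log2 level on each array of TPI1, PGK1, PGAM1, ENO1, LDHA and LDHB in the 12 groups, with points for arrays and black lines for group means. For the first 5 genes the rapamycin points lie below the vehicle points of the same line. The LDHB points overlap between treatments, around a vehicle mean of 9.92 in HB4a.

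The other members of lower glycolysis were ALDOA and ALDOC, 2 aldolases that cut fructose 1,6-bisphosphate, GAPDH, the NADH-yielding step, ENO2, the neuronal enolase, and PKM, the muscle-type pyruvate kinase. Counting all 9, 7 fell with rapamycin in HB4a, 6 of 8 tested in C5.2 and 6 of 8 in SKBR3, and 0 rose. Of all genes tested 1.1%, 14.6% and 10.8% fell and 2.08%, 2.83% and 7.48% rose in those lines. With the block GAPDH also fell in HB4a and C5.2 and ALDOA in SKBR3. That made 8, 7 and 7, beside 6.71%, 31.7% and 23.8% of all genes lower. ALDOC in HB4a read 4.34, 4.34, 5.11, 4.72 and 5.13 in vehicle and 3.02, 3.43, 4.09, 4.12 and 3.99 with rapamycin (-1.0 ± 0.27, adjusted p 0.0412, limma). Its groups did not overlap, but the call was lost without any 1 of rapamycin arrays 1, 2 and 6 or vehicle array 4 (change -1.10 to -0.82, adjusted p up to 0.0922). No rapamycin array of ALDOC in HB4a was above log2 5, so the filter favoured this fall, and with no filter it was not called. ALDOC is 1 of the 7 counted in HB4a.

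In SKBR3 ALDOC read 5.56, 5.84, 5.82, 6.08 and 5.86 in vehicle, 4.94, 4.88, 5.56, 5.40 and 5.36 with rapamycin and 4.76, 4.97, 5.2, 4.74 and 5.37 with both drugs. The changes were -0.61 ± 0.16 (adjusted p 0.00943, limma) and -0.83 ± 0.16 (adjusted p 0.000857, limma), each with every treated array below every vehicle array. In C5.2 ALDOC was too dim for the test. It read 4.19, 4.67, 4.69, 4.82 and 5.26 in vehicle and 3.45, 4.11, 3.77, 3.53 and 3.97 with rapamycin, and with no filter the change was -0.96 ± 0.21 (adjusted p 0.0111, limma). ALDOC moved further than ALDOA in SKBR3, where their log2 ratio fell by 0.36 with rapamycin and by 0.59 with both drugs (exact permutation test, adjusted p 0.0295 each). In HB4a the ratio fell by 0.67 with rapamycin (exact permutation test, adjusted p 0.0295), a call lost with the mean of probe sets and without vehicle array 6 or rapamycin array 1 or 2.

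ALDOA fell with rapamycin in HB4a (-0.32 ± 0.09, adjusted p 0.0387, limma) and in C5.2 (-0.33 ± 0.08, adjusted p 0.00579, limma). In HB4a this was lost with the mean of the ALDOA probe sets, as was the PKM call below with that of PKM. In SKBR3 ALDOA was called with the block (-0.25 ± 0.06, adjusted p 0.00227, limma) and not without it. PKM fell in HB4a from 6.86, 7.46, 6.63, 7.11 and 6.94 to 6.09, 6.42, 6.35, 6.31 and 6.61 (-0.65 ± 0.17, adjusted p 0.032, limma), with the highest rapamycin array just under the lowest vehicle array. In C5.2 it fell by 0.62 ± 0.18 on the log2 scale (adjusted p 0.0219, limma), and there the groups overlapped. GAPDH fell in SKBR3 by 0.18 ± 0.06 (adjusted p 0.0387, limma), with overlapping groups. In HB4a, 6 single arrays each ended the ALDOA call (rapamycin 1 and 2, vehicle 2, 3, 4 and 6, adjusted p up to 0.11) and 6 the PKM call (rapamycin 1, 3 and 4, vehicle 2, 4 and 6, adjusted p up to 0.105). In C5.2, 4 ended the PKM call (rapamycin 1 and 4, vehicle 3 and 6, adjusted p up to 0.0721), and in SKBR3 6 ended the GAPDH call (rapamycin 1, 2 and 3, vehicle 1, 4 and 6, adjusted p up to 0.111).

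ENO2 was called under no treatment without the block, and with the block it rose with doxorubicin in HB4a (0.44 ± 0.12, adjusted p 0.00856, limma). The log2 ratio of ENO2 to ENO1 rose with both drugs by 1.01 in HB4a (exact permutation test, adjusted p 0.0413) and by 0.91 in C5.2 (exact permutation test, adjusted p 0.0295). Both were lost with the mean of probe sets, and the HB4a call also without any 1 of 8 arrays (vehicle 1, 2, 3 and 6, both-drug 2, 3, 4 and 6). With rapamycin alone the ratio changed by 0.07 in HB4a (adjusted p 0.915) and by 0.43 in C5.2 (adjusted p 0.193).

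HK2, the insulin-responsive hexokinase that binds mitochondria, separated the lines. In HB4a it read 6.46, 6.42, 6.22, 6.72 and 6.5 in vehicle, 6.01, 6.06, 5.69, 5.92 and 5.95 with doxorubicin, 5.62, 5.27, 5.38, 5.49 and 5.38 with rapamycin and 4.91, 4.61, 4.74, 4.75 and 4.76 with both drugs. The 4 groups did not overlap at any step of that order. The changes against vehicle were -0.54 ± 0.11 with doxorubicin (adjusted p 0.00306, limma), -1.03 ± 0.11 with rapamycin (adjusted p 5.67e-06, limma) and -1.71 ± 0.11 with both (adjusted p 2.92e-09, limma). All 3 calls held with any 1 array left out. The rapamycin call was lost with the mean of the 3 HK2 probe sets.

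In C5.2 HK2 was too dim for the test, with 4.58, 4.36, 4.19, 4.82 and 5.29 in vehicle, 3.59, 2.79, 2.95, 3.27 and 4.15 with rapamycin and 2.92, 2.33, 2.77, 3.09 and 3.69 with both drugs. All treated arrays were below the lowest vehicle array. With no filter the changes were -1.3 ± 0.26 (adjusted p 0.00607, limma) and -1.69 (adjusted p 0.000281, limma). In SKBR3 HK2 read 6.89, 6.96, 7.43, 7.49 and 7.17 in vehicle and 6.88, 7.03, 7.49, 7.57 and 7.16 with rapamycin, almost array for array, and 6.35, 6.84, 6.99, 7.35 and 6.76 with both drugs. It was not called there without the block. With the block it fell with both drugs, by 0.33 ± 0.08 against vehicle (adjusted p 0.00282, limma) and by 0.37 ± 0.08 against rapamycin (adjusted p 0.011, limma).

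The difference in the HK2 response to rapamycin was itself called for SKBR3 minus HB4a, at 1.07 ± 0.21 (adjusted p 0.000638, limma). With the mean of the HK2 probe sets it was 0.40 and no longer called (adjusted p 0.129, limma). For both drugs that difference was 1.38 ± 0.21 (adjusted p 1.25e-05, limma). For SKBR3 minus C5.2 the differences were 1.34 ± 0.33 with rapamycin and 1.36 ± 0.33 with both drugs. They are given as a description, since HK2 passed the filter of that fit through SKBR3 alone. HK1, the hexokinase found in most tissues, fell in C5.2 from 8.0, 7.98, 7.95, 8.14 and 8.04 to 7.63, 7.76, 7.51, 7.64 and 7.69 with rapamycin (-0.37 ± 0.07, adjusted p 0.0013, limma) and was not called in HB4a or SKBR3 with rapamycin. With the block it fell in HB4a too (-0.28 ± 0.07, adjusted p 0.0126, limma). The log2 ratio of HK2 to HK1 fell in HB4a by 0.75 with rapamycin (exact permutation test, adjusted p 0.0413) and by 1.51 with both drugs (exact permutation test, adjusted p 0.0295). The rapamycin call was lost without any 1 of vehicle arrays 1, 2, 4 and 6 and with the mean of probe sets, and the change ranged from -0.91 to -0.03 over these and the other settings. In SKBR3 with rapamycin the ratio changed by 0.01 (adjusted p 0.952).

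Of the other entry steps, PFKP, the platelet-type phosphofructokinase, fell with rapamycin in SKBR3 from 7.95, 7.75, 7.80, 7.65 and 7.91 to 7.48, 7.09, 7.56, 7.61 and 7.51 (-0.36 ± 0.10, adjusted p 0.0145, limma), with the groups apart by a narrow margin. Without the arrays that stood apart it was -0.33 and not called (adjusted p 0.0582, limma). PFKM, the muscle type, fell in C5.2 with both drugs from 7.52, 7.63, 7.47, 7.63 and 7.62 to 7.44, 7.15, 7.04, 6.98 and 7.29 (-0.40 ± 0.10, adjusted p 0.00751, limma). GPI, which turns glucose 6-phosphate into fructose 6-phosphate, fell with both drugs in HB4a from 9.23, 9.58, 9.21, 9.29 and 9.37 to 8.81, 8.90, 8.84, 9.12 and 9.11 (-0.38 ± 0.10, adjusted p 0.0122, limma). It also fell with both drugs in C5.2 (-0.48, adjusted p 0.0416, limma), a call that was lost without any 1 of 7 arrays (both-drug 1, 3 and 4, vehicle 2, 3, 4 and 6, adjusted p up to 0.11). PFKL, the liver type, was called only with the block, where it rose with doxorubicin in HB4a (0.21 ± 0.08, adjusted p 0.0462, limma) and fell with rapamycin in C5.2 (-0.23 ± 0.08, adjusted p 0.035, limma).

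The PFKFB genes make and break fructose 2,6-bisphosphate, the activator of phosphofructokinase, and they moved in different directions. PFKFB4 in HB4a read 5.85, 5.55, 6.18, 6.14 and 6.26 in vehicle and 4.38, 4.85, 4.96, 5.31 and 5.26 with rapamycin (-1.04 ± 0.20, adjusted p 0.00311, limma). In C5.2 it read 5.29, 5.72, 4.88, 5.23 and 5.48 in vehicle and 4.59, 4.78, 4.07, 4.21 and 4.29 with rapamycin (-0.93 ± 0.16, adjusted p 0.000802, limma). In both lines every rapamycin array was below every vehicle array. In C5.2 no rapamycin or both-drug array was above log2 5. The filter favoured a fall of PFKFB4 there, so the C5.2 values are a description, though its rapamycin call was kept with no filter. With both drugs it read 4.65, 5.02, 5.12, 5.19 and 5.40 in HB4a (-0.92 ± 0.20, adjusted p 0.00225, limma) and 4.66, 4.90, 4.48, 4.56 and 4.77 in C5.2 (-0.65 ± 0.16, adjusted p 0.00781, limma). In SKBR3 it was too dim for the test, with 3.73, 3.90, 4.01, 3.71 and 3.71 in vehicle and 3.26, 3.81, 3.57, 3.26 and 3.16 with rapamycin (-0.40 ± 0.13 with no filter, adjusted p 0.0832, limma).

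PFKFB3, whose product mostly makes fructose 2,6-bisphosphate, rose in SKBR3. It read 3.95, 4.66, 4.62, 4.67 and 4.45 in vehicle and 5.04, 5.51, 5.43, 5.34 and 5.03 with rapamycin (0.80 ± 0.20, adjusted p 0.00701, limma), with no overlap. No vehicle or doxorubicin array there was above log2 5, so the filter favoured this rise and the SKBR3 values are a description. With no filter the rapamycin call was kept. Against doxorubicin, at 3.54, 4.34, 4.19, 3.96 and 3.65, both drugs gave 4.35, 5.18, 5.39, 4.94 and 4.84 (1.0 ± 0.20, adjusted p 0.00123, limma). Against vehicle both drugs were called with the block (0.47 ± 0.10, adjusted p 0.000814, limma) and not without it. In HB4a it read 5.47, 5.5, 5.40, 5.75 and 5.79 in vehicle and 5.27, 5.29, 5.05, 5.65 and 5.25 with rapamycin, which was not called, and fell with both drugs to 4.97, 4.91, 5.19, 5.39 and 5.25 (-0.44 ± 0.13, adjusted p 0.0199, limma). The HB4a call was lost without both-drug array 2 or vehicle array 4 or 6 (change -0.50 to -0.38, adjusted p up to 0.0617).

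The PFKFB3 response to rapamycin was higher in SKBR3 than in HB4a by 1.08 ± 0.23 (adjusted p 0.00236, limma) and than in C5.2 by 1.02 ± 0.29 (adjusted p 0.0278, limma). The second of these was lost without any 1 of SKBR3 rapamycin arrays 2 and 3, SKBR3 vehicle array 1, C5.2 rapamycin array 2 and C5.2 vehicle array 6 (0.86 to 1.08, adjusted p up to 0.0717). PFKFB2 in SKBR3 fell with both drugs by 0.56 ± 0.19 (adjusted p 0.0417, limma), with overlapping groups and a call lost without any 1 of 8 arrays (both-drug 1, 2, 3 and 6, vehicle 1, 3, 4 and 6, adjusted p up to 0.118). The log2 ratio of PFKFB3 to PFKFB2 rose in SKBR3 by 0.99 with rapamycin (exact permutation test, adjusted p 0.0413), a call lost without any 1 of rapamycin arrays 2, 3, 4 and 6.

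**Figure D3:**
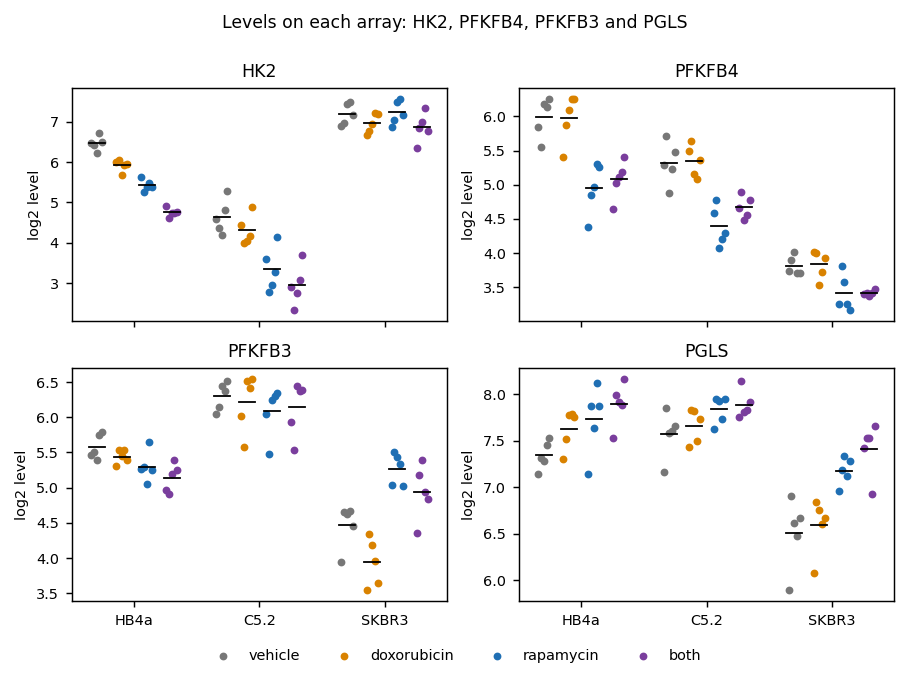
Log2 level on each array of HK2, PFKFB4, PFKFB3 and PGLS in the 12 groups, with points for arrays and black lines for group means. HK2 steps down from vehicle to both drugs in HB4a and C5.2 and lies between 6.35 and 7.57 in SKBR3 vehicle, rapamycin and both-drug arrays. PFKFB3 and PGLS are higher with rapamycin than with vehicle in SKBR3.

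Among glucose carriers, SLC2A1 (GLUT1) fell with rapamycin in C5.2, from 5.66, 6.05, 5.61, 5.76 and 5.94 to 5.32, 5.15, 5.2, 5.35 and 5.48 (-0.51 ± 0.12, adjusted p 0.0058, limma). No rapamycin array reached the lowest vehicle array. In HB4a the change was not called, with vehicle arrays at 6.75 to 7.10 and rapamycin arrays at 6.39 to 7.0. In SKBR3 the vehicle arrays read 6.72 to 7.75 and the rapamycin arrays 7.30 to 7.69, also not called. The response differed between SKBR3 and C5.2 by 0.72 ± 0.20 (adjusted p 0.0253, limma), lost without any 1 of SKBR3 rapamycin arrays 2 and 3, SKBR3 vehicle array 1 and C5.2 vehicle arrays 2 and 6 (0.58 to 0.84, adjusted p up to 0.0669). SLC2A3 (GLUT3) did not pass the filter in any line.

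In the pentose phosphate pathway, 0 of 5 tested members changed with rapamycin in HB4a, 1 of 5 fell in C5.2 and 1 of 6 rose in SKBR3, where 1.1%, 14.6% and 10.8% of all genes fell and 2.08%, 2.83% and 7.48% rose in those lines. At these shares 1 of 5 or 1 of 6 is near the background. The member that rose in SKBR3 was PGLS, the lactonase of the oxidative arm. In SKBR3 it read 5.89, 6.91, 6.62, 6.48 and 6.67 in vehicle, 6.96, 7.19, 7.34, 7.12 and 7.28 with rapamycin and 7.42, 7.53, 7.53, 6.93 and 7.66 with both drugs. Every treated array was above every vehicle array, with changes of 0.67 ± 0.17 (adjusted p 0.00909, limma) and 0.90 ± 0.17 (adjusted p 0.000947, limma, 1.87-fold). In HB4a PGLS rose with both drugs from 7.14, 7.32, 7.28, 7.46 and 7.53 to 7.53, 7.99, 7.92, 7.89 and 8.17 (0.55 ± 0.15, adjusted p 0.016, limma), where the groups met at 7.53 and the call was lost without both-drug array 6 (adjusted p 0.0515) and with the mean of its probe sets. With the block PGLS rose with rapamycin in HB4a (0.38 ± 0.09, adjusted p 0.00759, limma) and in C5.2 (0.27 ± 0.07, adjusted p 0.00362, limma) as well.

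The member that fell in C5.2 was TKT, transketolase, from 9.50, 9.74, 9.47, 9.52 and 9.38 to a tight 9.27, 9.25, 9.28, 9.28 and 9.31 (-0.24 ± 0.06, adjusted p 0.0118, limma). Its response was higher in SKBR3 than in C5.2 by 0.38 ± 0.09 (adjusted p 0.00871, limma). PGD, which makes NADPH and ribulose 5-phosphate, RPIA, the ribose 5-phosphate isomerase, and RPE, the ribulose phosphate epimerase, were not called against vehicle in a line where they were tested, except RPE in SKBR3 with both drugs in the blocked fit (-0.71 ± 0.16, adjusted p 0.00122, limma).

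On the glycogen side, PGM1, the phosphoglucomutase that links glucose 6-phosphate and glucose 1-phosphate, fell with rapamycin in C5.2 from 8.27, 8.42, 8.18, 8.23 and 8.4 to 7.80, 7.83, 7.65, 7.85 and 7.99 (-0.48 ± 0.08, adjusted p 0.00048, limma). With both drugs it read 7.89, 7.95, 7.73, 7.82 and 8.03 (-0.42 ± 0.08, adjusted p 0.000877, limma). Both treated groups lay below vehicle. In HB4a it fell with rapamycin by 0.41 ± 0.11 (adjusted p 0.0365, limma) without overlap, a call lost without any 1 of rapamycin arrays 1, 2 and 3 or vehicle arrays 3, 4 and 6 (adjusted p up to 0.115). The PGM1 response was higher in SKBR3 than in C5.2 by 0.42 ± 0.09 (adjusted p 0.00472, limma). GYS1, the muscle-type glycogen synthase, fell with rapamycin in C5.2 by 0.53 ± 0.12 (adjusted p 0.00587, limma). Its vehicle arrays read 5.98, 6.60, 6.62, 6.52 and 6.65 and its rapamycin arrays 5.87, 6.15, 6.12, 5.72 and 5.88, which overlapped through vehicle array 1. With the block GYS1 fell in HB4a as well (-0.56 ± 0.09, adjusted p 0.000332, limma). PGM2, GBE1, the branching enzyme, and UGP2, which makes UDP-glucose, were not called against vehicle without the block. With it GBE1 fell with rapamycin in HB4a (-0.65 ± 0.14, adjusted p 0.00323, limma) and with both drugs in SKBR3 (-0.53 ± 0.12, adjusted p 0.000896, limma). UGP2 fell in SKBR3 with both drugs (-0.59 ± 0.14, adjusted p 0.00139, limma) and in C5.2 fell with doxorubicin (-0.39 ± 0.12) and rose with rapamycin (0.38 ± 0.12, adjusted p 0.0353 and 0.0196, limma).

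With both drugs TPI1, PGK1, PGAM1, ENO1 and LDHA fell against vehicle in all 3 lines. In HB4a 12 of 30 members fell and 1 rose, where 6.49% of all genes fell and 10.9% rose. In C5.2 14 of 28 fell and 0 rose, against 14.6% and 6.42%. In SKBR3 8 of 30 fell and 1 rose, against 13.6% and 8.35%. Blocked by experiment, 14 fell and 3 rose in SKBR3, beside 50.5% of all genes changed, with PFKFB3 and TKT added as higher and HK2, ALDOA, LDHB, RPE, GBE1 and UGP2 as lower. Medians of the members were -0.32, -0.29 and -0.16, beside 0.05, -0.06 and -0.06 for all genes. PGAM1 with both drugs read 9.79, 10.31, 9.88, 10.21 and 10.13 in HB4a (-0.54 ± 0.10, adjusted p 0.000867, limma) and 10.37, 10.31, 10.07, 10.17 and 10.32 in C5.2 (-0.54 ± 0.07, adjusted p 1.39e-05, limma). In SKBR3 it read 9.27, 9.22, 9.29, 8.86 and 9.18 (-0.36 ± 0.08, adjusted p 0.00205, limma). All 3 groups lay below vehicle. Without SKBR3 vehicle array 2, 14 members were called in SKBR3 in place of 9. Without the arrays that stood apart, 17, 15 and 8 members changed in HB4a, C5.2 and SKBR3, of which 13, 13 and 6 were called in the full set. In that setting 1621 of 5944, 1757 of 6209 and 975 of 5852 genes changed. SLC2A1 in C5.2 and GAPDH, PFKFB2 and PGK1 in SKBR3 were lost. Without SKBR3 vehicle array 3 there were 8 members in SKBR3, beside 976 of 5942 genes, with PFKFB2 lost. Calls lost without 1 array were those of ALDOA, PFKFB3, PGLS and PGM1 in HB4a, of GPI, PKM, SLC2A1 and TALDO1 in C5.2, and of GAPDH and PFKFB2 in SKBR3.

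Rapamycin could be read a second time, against doxorubicin, because both drugs against doxorubicin shares no array with rapamycin against vehicle. In HB4a 10 members fell and 0 rose, where 1.43% of all genes fell and 1.15% rose. In C5.2 13 fell and 0 rose, against 11.8% and 1.73%, and in SKBR3 9 fell and 3 rose, against 14.6% and 7.41%. With the block these counts were 19 lower and 1 higher in C5.2, beside 38% of all genes changed, and 16 lower and 4 higher in SKBR3, beside 49.6%. The totals were 11, 15 and 10 without the arrays that stood apart, and in SKBR3 the calls of PFKP and PGK1 were lost. In that setting 246 of 5944, 1121 of 6209 and 1113 of 5852 genes were called. The members that fell in both readings numbered 8 in HB4a (72.7% of the 11 and 80% of the 10), 12 in C5.2 (92.3% of each 13) and 8 in SKBR3 (100% of the 8 and 88.9% of the 9). PFKFB3, whose rise the filter favoured, and PGLS rose in both readings in SKBR3. The sign was shared by 28 of 30 members in HB4a, 27 of 28 in C5.2 and 27 of 30 in SKBR3. Repeats and shared signs were not counted over all genes, so they are not shown to be particular to the members.

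Among members past the filter, the largest changes of this second reading were those of HK2 in HB4a (-1.17 ± 0.11, adjusted p 3.85e-06, limma) and ALDOC in SKBR3. ALDOC read 5.70, 5.89, 6.32, 6.13 and 6.10 with doxorubicin in SKBR3, and all its both-drug arrays, given above, were lower (-1.02 ± 0.16, adjusted p 9.47e-05, limma). HK2 in C5.2, which was too dim for the test, changed by -1.35 ± 0.26 (adjusted p 0.00604 with no filter, limma), without overlap. PFKFB4 fell by 0.90 ± 0.20 in HB4a (adjusted p 0.0129, limma) and by 0.67 ± 0.16 in C5.2 (adjusted p 0.0105, limma). The C5.2 value is a description, since the filter favoured a fall there. GYS1 fell in C5.2 from 6.79, 6.80, 6.78, 6.5 and 6.82 with doxorubicin to 6.21, 6.31, 6.05, 5.97 and 6.23 (-0.58 ± 0.12, adjusted p 0.00443, limma), without overlap. In HB4a GYS1 fell from 6.80, 6.96, 7.29, 7.46 and 7.12 to 5.98, 6.66, 6.49, 6.76 and 6.58 (-0.63 ± 0.17, adjusted p 0.0471, limma), and that call was lost without any 1 of 9 arrays (all but doxorubicin array 1, adjusted p up to 0.149). PGLS rose in SKBR3 by 0.82 ± 0.17 (adjusted p 0.00199, limma).

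**Figure D4:**
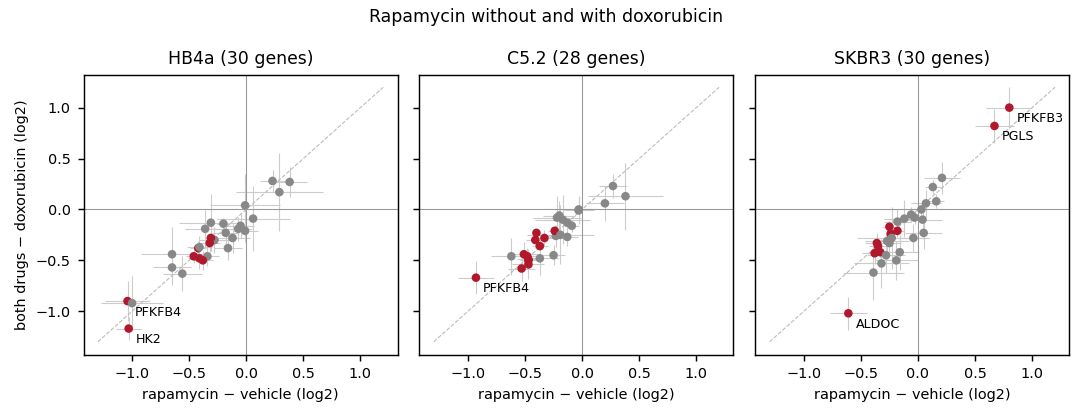
Change with rapamycin against vehicle (x axis, log2) and with both drugs against doxorubicin (y axis, log2) of each tested member, with standard errors, in HB4a (30 genes), C5.2 (28) and SKBR3 (30). Red marks genes called in the same direction in both, and the dashed line is equality. Most points lie to the lower left, and PFKFB3 and PGLS in the upper right of SKBR3.

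Doxorubicin changed few members. In HB4a 2 of 30 fell and 0 rose, where 2.77% of all genes fell and 8.66% rose. With the block 4 fell and 4 rose beside 32.7% of all genes changed. PGK1 and ENO1 were added as lower and PFKL, ENO2, TKT and PGLS as higher. The doxorubicin and vehicle arrays bear out that block, but the both-drug arrays in the same fit do not. The 2 called without the block were HK2, given above, and LDHA, from the vehicle values above to 11.39, 11.34, 11.35, 11.26 and 11.36 (-0.23 ± 0.07, adjusted p 0.0362, limma). The LDHA groups did not overlap, but the call was lost without any 1 of doxorubicin arrays 2, 3, 4 and 6 or vehicle arrays 1, 3 and 4 (adjusted p up to 0.0983). In C5.2 1 of 28 fell, against 0.413% of all genes lower and 2.84% higher, and with the block 3 fell beside 17.4% of all genes changed, with LDHA and UGP2 added. The member called without the block was PGK1, at 10.86, 10.94, 10.91, 10.89 and 10.98 with doxorubicin (-0.18 ± 0.04, adjusted p 0.0184, limma), below all vehicle arrays, and its call was lost without doxorubicin array 3 (adjusted p 0.0509), with no filter, with array centring and with the mean of the PGK1 probe sets. Leaving out the arrays that stood apart gave 3 called members in HB4a and 2 in C5.2, beside 1494 of 5944 and 561 of 6209 genes. In SKBR3 0 of 30 were called by limma, against 0.837% of all genes, 3 had an unadjusted p under 0.05, and with the block 2 fell, SLC2A1 (-0.34 ± 0.09, adjusted p 0.0248, limma) and PFKFB3 (-0.53 ± 0.10, adjusted p 0.00282, limma), beside 5% of all genes changed.

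Doxorubicin added to rapamycin lowered 3 of 30 members in HB4a, where 3.18% of all genes fell and 5.66% rose. HK2 fell by 0.67 ± 0.11 (adjusted p 0.000423, limma), with no overlap. ENO1 fell by 0.31 ± 0.09 (adjusted p 0.024, limma) and LDHA by 0.23 ± 0.07 (adjusted p 0.0361, limma), with overlap. Without both-drug array 4 or rapamycin array 3, 1 member was called. Without the arrays that stood apart 2 were, beside 654 of 5944 genes, with LDHA lost. The ENO1 call was lost without both-drug array 4 or rapamycin array 2, 3 or 6 (adjusted p up to 0.0685), and the LDHA call without both-drug array 3, 4 or 6 or rapamycin array 1 or 3 (adjusted p up to 0.12). In C5.2 0 of 28 were called by limma, against 6.39% of all genes, 0 had an unadjusted p under 0.05, 1 was called without rapamycin array 2, 1 was called without the arrays that stood apart, and 5 were called with the block, beside 22.2%, which were PFKFB4 (higher) and ENO1, LDHA, LDHB and UGP2 (lower). In SKBR3 0 of 30 were called, against 0.552% of all genes, 4 had an unadjusted p under 0.05, and 1, HK2, was called with the block, beside 6.64%. A departure from additivity of the drugs on the log2 scale was called for 0 members and 0% of all genes in each line, with 0, 1 and 0 members at an unadjusted p under 0.05 in HB4a, C5.2 and SKBR3.

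In vehicle, the 4 largest differences between C5.2 and HB4a among members past the filter were in HK2, SLC2A1, GPI and PGM1, each lower in C5.2. Of 31 members tested, 12 were lower and 5 higher, where 19.9% of all genes were lower and 29.3% higher. HK2 and ALDOC passed the filter through HB4a alone and SLC2A3 in neither line alone. Of the 28 members that passed in each line, 11 were lower and 5 higher. With the block, ENO2 and PGLS were added as higher and ENO1 and GBE1 as lower, which made 21, beside 58.2% of all genes changed. The vehicle arrays bear out that block (lowest r 0.163), but the HB4a both-drug arrays in the same fit do not. Without the arrays that stood apart there were 21 also, beside 4221 of 6844 genes. HK2 differed by -1.81 ± 0.21 (3.51-fold), given as a description since the filter let it in through its level in HB4a, and the highest C5.2 array, 5.29, was below the lowest HB4a array, 6.22. SLC2A1 differed by -1.10 ± 0.12 (adjusted p 6.3e-10, limma), with C5.2 at 5.61 to 6.05 and HB4a at 6.75 to 7.10. GPI read 7.89, 8.32, 8.34, 8.41 and 8.59 in C5.2, below all HB4a arrays (-1.03 ± 0.14, adjusted p 7.97e-08, limma). PGM1 read 9.10, 9.01, 9.20, 9.20 and 9.42 in HB4a, above all C5.2 arrays (-0.88 ± 0.09, adjusted p 2.66e-10, limma). PFKFB2, which was outside the fit, was at least 2.11-fold lower in C5.2, from means of 1.41 there and 2.70 in HB4a.

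The 5 members higher in C5.2 were PFKFB3 (0.72 ± 0.17, adjusted p 0.000673, limma), TKT, TALDO1, PFKP and PFKM, the last 4 by 0.28 to 0.55. With the mean of its probe sets TKT turned to -0.12 (adjusted p 0.353, limma), and the PFKM call was lost without HB4a vehicle array 3. LDHA was lower in C5.2 (-0.43). GYS1 was lower (-0.42), lost without C5.2 array 1 or HB4a array 2 or 4 (-0.51 to -0.30).

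**Figure D5:**
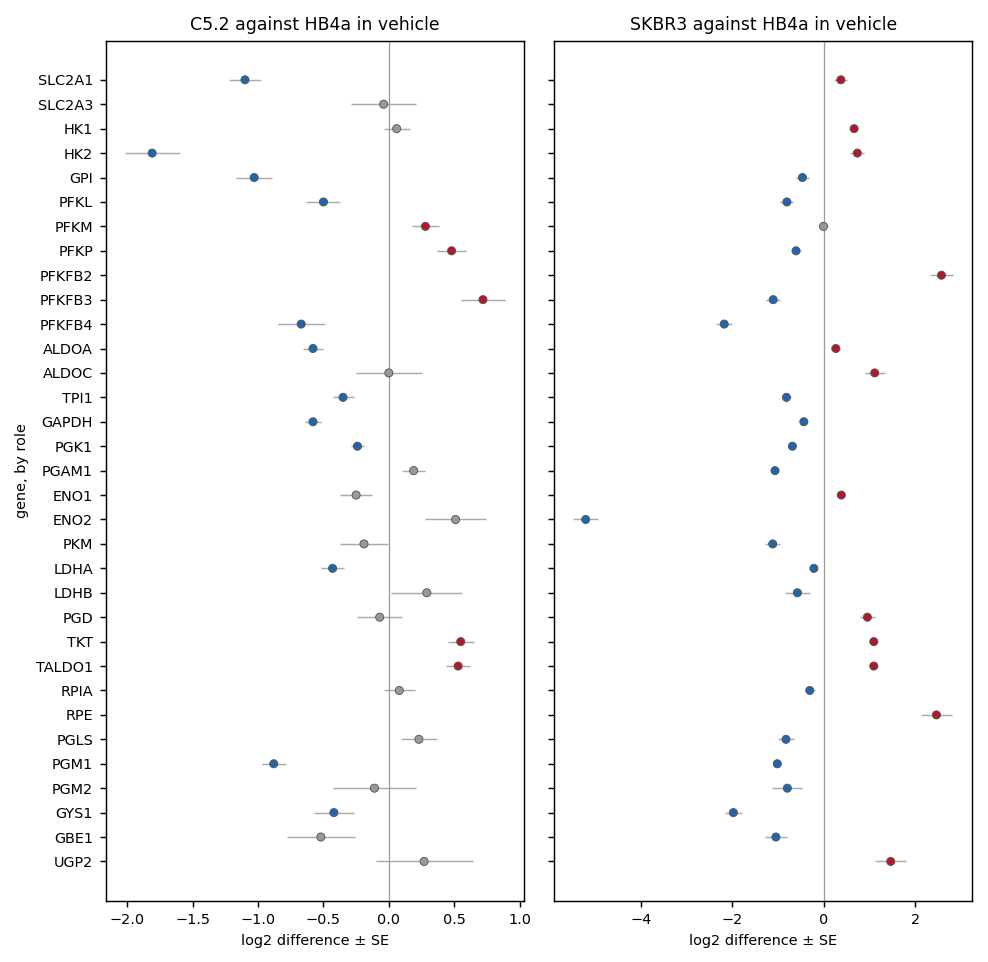
Difference in vehicle, with standard error (log2), of C5.2 against HB4a (left) and SKBR3 against HB4a (right) for each measured gene. Red is called higher, blue called lower and grey not called, and the 2 panels have different scales. HK2 is the lowest point on the left at -1.81, and ENO2, near background in SKBR3, is the lowest on the right.

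SKBR3 against HB4a, where line, medium and density cannot be told apart, gave calls for 31 of 32 members, 12 higher and 19 lower, where 77.3% of all genes were called, 37.6% higher and 39.7% lower. With the mean of all probe sets 4 were higher and 16 lower. PFKFB2 and RPE passed the filter through SKBR3 alone and PFKFB4 and ENO2 through HB4a alone, so these 4 had to differ and are given as a description. Of the 28 that passed in each line, 10 were higher and 17 lower. ENO2 read 0.28, 0.91, 2.33, 0.80 and 0.81 in SKBR3, near the array medians, and 5.86, 5.98, 6.25, 6.66 and 6.44 in HB4a. It was at least 23.7-fold lower in SKBR3, taking each SKBR3 array at the higher of its own value and its array median. SLC2A3, which was outside the fit, was at least 10.9-fold lower by the same bound, from a mean of 4.95 in HB4a and 0.50 in SKBR3.

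PFKFB2, the heart-type bifunctional enzyme, read 5.49, 4.71, 5.33, 5.63 and 5.17 in SKBR3 and 3.18, 2.37, 2.93, 2.64 and 2.37 in HB4a (a difference of 2.57 ± 0.26). PFKFB4 went the other way (-2.18 ± 0.17), as did PFKFB3 (-1.11 ± 0.16, adjusted p 1.54e-07, limma). RPE read 6.0, 5.17, 5.70, 5.93 and 5.48 in SKBR3 and 3.83, 2.77, 3.12, 2.96 and 3.28 in HB4a (a difference of 2.46 ± 0.33).

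Of the pentose phosphate members, PGD (0.95 ± 0.17), TKT (1.09 ± 0.10), TALDO1 (1.09 ± 0.09) and RPE were higher in SKBR3 than in HB4a, and PGLS (-0.83 ± 0.17) and RPIA (-0.31 ± 0.11) lower. Of the glycogen members, GYS1 (-1.98 ± 0.18), GBE1, PGM1 (-1.02 ± 0.09) and PGM2 were lower and UGP2 (1.46 ± 0.34) higher. In lower glycolysis, PKM (-1.12 ± 0.17), PGAM1 (-1.07 ± 0.09), TPI1 (-0.82 ± 0.09), PGK1 (-0.69 ± 0.06) and GAPDH (-0.44 ± 0.06) were lower, and ALDOC (1.11 ± 0.22), ENO1 (0.38 ± 0.07) and ALDOA (0.26) higher. HK2 was higher in SKBR3 by 0.73 ± 0.15 (adjusted p 3.2e-05, limma) on its brightest probe set, whose mean was 7.19 against 6.46 in HB4a. Its other 2 probe sets were lower in SKBR3, at 2.31 and 1.43 against 4.70 and 4.26, and the mean of the 3 gave -1.5 (adjusted p 3.54e-15, limma). SLC2A1 was higher by 0.37, lost without SKBR3 vehicle array 2 (0.26, adjusted p 0.101). The PGM2 and LDHB differences were lost without any 1 of 4 and 6 arrays.

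SKBR3 against C5.2, the pair with high ERBB2, gave calls for 31 of 32 members, 15 higher and 16 lower, where 78.8% of all genes were called, 36.2% higher and 42.6% lower. The count was 28 without the arrays that stood apart, beside 5807 of 7214 genes, with GAPDH, LDHA and PFKL lost. HK2, PFKFB2, ALDOC and RPE passed the filter through SKBR3 alone and PFKFB4 and ENO2 through C5.2 alone. The filter favoured a difference in these members, so their values are given as a description. Of the other 26 members 11 were higher and 14 lower. HK2 was higher in SKBR3 by 2.54 ± 0.24. ENO2 was at least 33.8-fold lower, from a C5.2 vehicle range of 6.27 to 6.97, and PFKFB2 at least 12.5-fold higher, from 1.52, 1.44, 1.17, 1.41 and 1.5 in C5.2. RPE was higher by 2.17 ± 0.28, with C5.2 at 4.05, 3.32, 3.42, 3.2 and 3.46. GAPDH was higher by 0.14 and turned to -0.10 with quantile normalization (adjusted p 0.128, limma). Calls lost without 1 array were those of GAPDH, GBE1, LDHA, PFKL and PGM2. These line comparisons share vehicle arrays, so their agreement is not a result.

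The tests of the difference between lines in drug response gave few members. C5.2 minus HB4a gave 0 of 31 members with limma for doxorubicin, rapamycin and both drugs, against 0.101%, 0% and 0.373% of all genes, with 0, 1 and 0 members at an unadjusted p under 0.05. SKBR3 minus HB4a gave 0 of 32 for doxorubicin, against 3.87% of all genes, with 3 at an unadjusted p under 0.05, 1 called without SKBR3 vehicle array 1, 1 without the arrays that stood apart, and 3 with the block, beside 15.9%, which were ENO1 (higher) and SLC2A1 and PFKFB3 (lower). For rapamycin it gave 2, HK2 and PFKFB3, against 5.03%, and 12 with the block, beside 22.5%. The block added SLC2A1, HK1, GPI, PFKFB4, TKT, PGM1 and GYS1 as higher and PFKP, RPIA and RPE as lower. PFKFB4 passed the filter through HB4a alone and RPE through SKBR3 alone, so both are given as a description. For both drugs it gave 4, HK2, PFKFB3, ENO1 and PGM1, against 9.82%. ENO1 fell less in SKBR3, by 0.51 ± 0.10 (adjusted p 0.000251, limma), a call lost with the mean of its probe sets.

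SKBR3 minus C5.2 gave 0 of 32 for doxorubicin, against 1.47% of all genes, with 2 at an unadjusted p under 0.05 and 3 lower with the block, SLC2A1, HK1 and PFKFB3, beside 8.23%. For rapamycin it gave 7, against 6.23%, all higher in SKBR3, and 14 with the block, beside 32.4%, which added GPI, PFKFB4, PGLS and GYS1 as higher and LDHB, RPE and UGP2 as lower. HK2, PFKFB3, SLC2A1, PGM1, PFKM, HK1 (0.40 ± 0.08, adjusted p 0.00099, limma) and TKT made up the 7. Of the members named for rapamycin, HK2 and RPE passed the filter through SKBR3 alone and PFKFB4 through C5.2 alone. They are given as a description. Without the SKBR3 rapamycin array 3 or vehicle array 1 there were 4. Without the arrays that stood apart there were 4, beside 479 of 7214 genes, with PFKM, SLC2A1 and TKT lost. For both drugs it gave 7, against 12.3%, and between 4 and 10 with 1 array left out, with 4 without SKBR3 both-drug array 6 or C5.2 vehicle array 2. Without the arrays that stood apart there were 4, beside 1086 of 7214 genes. Without SKBR3 vehicle array 3 there were 5, beside 848 of 7309. One of the 7, PFKFB2, had C5.2 means of 1.41 in vehicle and 1.71 with both drugs, within the range of the array medians, so it has no response in C5.2 to compare with. PFKFB2 and HK2, another of the 7, passed the filter through SKBR3 alone and are given as a description. The response in SKBR3 exceeded that in C5.2 for ENO1 (0.55 ± 0.15, adjusted p 0.0101, limma, lost with the mean of its probe sets) and for PGM1 (0.50 ± 0.09, adjusted p 0.000289, limma).

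Another 66 genes of the same pathways, outside the members, served as a comparison, and 59 had a value. With rapamycin 0 of 23 tested changed in HB4a, 7 of 24 fell in C5.2, and 2 of 22 fell and 1 rose in SKBR3, beside the 1.1%, 14.6% and 10.8% of all genes that fell and the 2.08%, 2.83% and 7.48% that rose. With the block 3 fell and 1 rose, 11 fell and 2 rose, and 6 fell and 6 rose in HB4a, C5.2 and SKBR3, beside 6.71%, 31.7% and 23.8% of all genes lower and 9.63%, 12.5% and 18% higher. MPC1, a subunit of the mitochondrial pyruvate carrier, fell in C5.2 (-0.58 ± 0.12, adjusted p 0.0033, limma) and in SKBR3 (-0.51 ± 0.07, adjusted p 1.56e-05, limma). GYG1, the glycogenin that primes glycogen, rose in SKBR3 (0.33 ± 0.08, adjusted p 0.00847, limma). TIGAR, a p53 target that lowers fructose 2,6-bisphosphate, rose in C5.2 with doxorubicin (0.99 ± 0.22, adjusted p 0.0151, limma) and with both drugs (1.03 ± 0.22, adjusted p 0.00259, limma). SLC2A10, a facilitative sugar carrier, rose with both drugs in HB4a (1.05 ± 0.15, adjusted p 5.53e-05, limma).

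Of 25 hypoxia targets outside glycolysis, 23 had a value. With rapamycin 4 of 18 tested fell and 0 rose in HB4a, 6 of 17 fell and 2 rose in C5.2, and 4 of 17 fell and 3 rose in SKBR3, beside the same shares of all genes. With the block these were 6 and 1, 8 and 2, and 5 and 5. The blocked shares of all genes were 6.71%, 31.7% and 23.8% lower and 9.63%, 12.5% and 18% higher. The 4 in HB4a, chosen after their values were seen, were DDIT4 (-1.04 ± 0.21), HILPDA (-0.63 ± 0.11), CA12 (-0.52 ± 0.11) and P4HA2 (-0.41 ± 0.11). Their part in the changes of the members was not tested.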

How the data were processed

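RNA was measured on 60 Affymetrix U133 Plus 2 arrays, 5 per group. The deposited values are log2 probe set levels, made by the authors with RMA per the submitters' processing notes. The version is not given in the sources used here, and base 2 was read from the range, -0.60 to 13.08. The labels call vehicle "DRC", a name their treatment text gives to the drug pair, and group names follow the source names, as does nM for doses. Per the design text, the 5 arrays of a group are independent experiments.

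Of 54675 probe sets, 41091 had 1 symbol, 1801 several, 11777 none here and 6 were controls. A gene was its brightest probe set. Of the 33 members, 4 rest on probe sets named _x_at, which can match related transcripts, 17 on sets named _s_at and 12 on others. Whether the _s_at sets match other genes was not checked. Genes above log2 5 on at least 5 arrays of a fit were tested with limma 3.58.1 (trend, 2-sided) in R 4.3.3, with Benjamini-Hochberg over all of them, in fits of 20 arrays within a line and 40 between lines, for 30 comparisons. Isozyme ratios used exact permutation tests. On simulated data for HB4a rapamycin (6167 genes) 35% of changes of 0.5 and 89% of changes of 1 were recovered, and for SKBR3 minus HB4a (7270 genes) 16% and 69%. Of the simulated calls, 3.88% and 7.61% were false, the second above the 5% set.

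Arrays with the same experiment number deviated together in SKBR3 (lowest r 0.238), in HB4a with doxorubicin (0.428) or rapamycin (0.461), in C5.2 except both drugs against vehicle, and in C5.2 against HB4a in vehicle (0.163). Counts and named calls with the experiment as a block stand beside those results where they differ. Each blocked fit held all arrays of its lines, so HB4a both-drug arrays, which do not pair, entered every blocked fit of HB4a. Fits were repeated with no filter, the mean of probe sets, array centring, quantile normalization, the block, and arrays left out. Arrays were named by a rule: up to 6 called members without overlap for rapamycin or both drugs against vehicle and up to 4 otherwise, in order of change, with further members for their role. The members and lists were chosen with earlier results of these data known. Python 3.11.15, pandas 2.3.3, numpy 2.4.6, matplotlib 3.10.9 and the R package data.table (version 1.17.8) were used.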

Additional observations from a re-analysis of the deposited data

Results flagged for a closer look

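The response of 20 member and comparison pairs differed between lines by the test of the difference itself (limma, Benjamini-Hochberg over all genes tested). For SKBR3 minus HB4a these were 2 of 32 members for rapamycin and 4 for both drugs. The shares of all genes were 5.03% and 9.82%, so these counts are near background. For SKBR3 minus C5.2 they were 7 of 32 for each, beside 6.23% and 12.3%. Both of these counts include HK2, and the second also PFKFB2, which passed the filter through SKBR3 alone, so they are not read as an excess. SKBR3 minus HB4a gave, for rapamycin, HK2 1.07 ± 0.21 (adjusted p 0.000638) and PFKFB3 1.08 ± 0.23 (adjusted p 0.00236), and the HK2 call was lost with the mean of its probe sets (0.40, adjusted p 0.129). For both drugs it gave HK2 1.38 ± 0.21, PFKFB3 0.91 ± 0.23, ENO1 0.51 ± 0.10 and PGM1 0.42 ± 0.12, and the last was lost without HB4a both-drug array 1 or vehicle array 6. SKBR3 minus C5.2 gave, for rapamycin, HK2 1.34 ± 0.33, PFKFB3 1.02 ± 0.29, SLC2A1 0.72 ± 0.20, PGM1 0.42 ± 0.09, PFKM 0.41 ± 0.12, HK1 0.40 ± 0.08 and TKT 0.38 ± 0.09. Of these, PFKFB3, SLC2A1 and PFKM were each lost without any 1 of 5 arrays. For both drugs it gave HK2 1.36 ± 0.33, PFKFB2 -0.86 ± 0.29, ENO1 0.55 ± 0.15, PGM1 0.50 ± 0.09, PFKM 0.42 ± 0.12, TKT 0.31 ± 0.09 and PGK1 0.21 ± 0.07. The PFKFB2 value has no readable response in C5.2, whose means of 1.41 and 1.71 lay within the range of the array medians, and the gene entered the fit through SKBR3 alone. HK2 entered that fit through SKBR3 alone as well, so its SKBR3 minus C5.2 values are a description. Of the both-drug calls, PFKFB2 was lost without any 1 of 15 arrays, PGK1 without any 1 of 13 and TKT without either of 2.

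Of 396 pairs of a member and a group, 23 had 1 array far from the other 4 (Dixon's test at 95%), where chance flags about 1 in 20 groups. Of these arrays, 11 were numbered 1, 8 were numbered 2, 2 were numbered 4 and 2 were numbered 6. On arrays numbered 1 in HB4a, HK1 with rapamycin read 7.24 (nearest other array 7.72), GYS1 with rapamycin 5.78 (6.38), PFKFB2 with both drugs 3.81 (2.5), GBE1 with both drugs 7.54 (6.60), PGM2 with doxorubicin 6.80 (5.81) and UGP2 with doxorubicin 6.29 (5.64). In C5.2 vehicle, PGM2 read 6.90 (6.09) and GYS1 5.98 (6.52). In SKBR3 with doxorubicin, GPI read 8.51 (9.06), GYS1 4.32 (4.90) and GBE1 6.30 (5.77). On arrays numbered 2, UGP2 in C5.2 read 5.63 in vehicle (6.41), 5.55 with rapamycin (7.01) and 4.91 with both drugs (6.19). GBE1 in C5.2 read 5.99 with doxorubicin (6.75) and 5.75 with rapamycin (6.49), and RPE in C5.2 read 2.91 with rapamycin (3.84). RPIA in HB4a read 6.35 with doxorubicin (5.95), and PFKP in SKBR3 read 7.09 with rapamycin (7.48). On arrays numbered 4, PGAM1 in SKBR3 read 8.86 with both drugs (9.18) and GYS1 in C5.2 read 6.5 with doxorubicin (6.78). On the HB4a vehicle array numbered 6, PGK1 read 11.45 (11.34) and ENO1 10.50 (10.30).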

How the results depend on the processing

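Of 614 counts of called members under other settings, 555 stayed within 1.5 times the main count, and 130 of 210 called member changes held in every setting. The sign turned in 3, all between lines: TKT in C5.2 against HB4a (-0.12) and HK2 in SKBR3 against HB4a (-1.5) with the mean of probe sets, and GAPDH in SKBR3 against C5.2 (-0.10) with quantile normalization. The members called were as follows. With no filter, where 19775 genes were tested: HB4a doxorubicin 1, HB4a rapamycin 6, C5.2 doxorubicin 0, SKBR3 minus C5.2 rapamycin 4. All genes called there were 870, 192, 242 and 381, in that order. With array centring: HB4a doxorubicin 1, C5.2 doxorubicin 0, SKBR3 minus C5.2 both drugs 4. All genes called there were 676 of 6039, 217 of 6276 and 750 of 7415. With the mean of probe sets: HB4a rapamycin 7, C5.2 doxorubicin 0, C5.2 both against doxorubicin 8, SKBR3 both against doxorubicin 7, SKBR3 against HB4a 20 (4 higher, 16 lower) and against C5.2 20 (9 higher, 11 lower), SKBR3 minus HB4a rapamycin 1, SKBR3 minus C5.2 both drugs 3. All genes called there were, in that order, 139 of 3598, 162 of 3641, 581 of 3641 and 878 of 3412 within lines. Between lines they were 3326 of 4289, 3428 of 4325, 295 of 4289 and 643 of 4325. Without the arrays that stood apart: C5.2 doxorubicin 2, C5.2 both against rapamycin 1, SKBR3 minus HB4a doxorubicin 1, SKBR3 minus C5.2 rapamycin 4 and both drugs 4. All genes called there were 561 and 625 of 6209, 536 of 7101, and 479 and 1086 of 7214. The cause of these shifts was not tested. Array centring moved the median of all genes by 0.19 in SKBR3 against HB4a and by 0.14 against C5.2, and quantile normalization by 0.12 in SKBR3 minus HB4a for both drugs.

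Blocked by experiment (the replicate number), the counts were 8 for HB4a doxorubicin, 17 for rapamycin, 20 for both against vehicle, 18 against doxorubicin and 6 against rapamycin. Of all 6167 genes tested, 2014, 1008, 2307, 973 and 1754 were called, in that order. In C5.2 the member counts were 3 for doxorubicin, 20 for rapamycin, 20 for both against doxorubicin and 5 against rapamycin. In SKBR3 they were 2 for doxorubicin, 17 for both against vehicle, 20 against doxorubicin and 1 against rapamycin. The shares of all genes were 17.4%, 44.2%, 38% and 22.2% in C5.2 and 5%, 50.5%, 49.6% and 6.64% in SKBR3. For SKBR3 minus HB4a the member counts were 3, 12 and 8 for doxorubicin, rapamycin and both drugs, and for SKBR3 minus C5.2 3, 14 and 16. All genes called were 1157, 1634 and 2317 of 7270, and 603, 2375 and 2797 of 7324. The numbers do not pair the HB4a arrays with both drugs (lowest r -0.569), C5.2 both against vehicle (-0.1), or SKBR3 with HB4a (-0.116) or C5.2 (-0.0635) in vehicle.

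With 1 array left out, counts ranged, in HB4a, over 1 to 2 for doxorubicin, 6 to 12 for rapamycin, 10 to 13 for both, 7 to 11 for both against doxorubicin and 1 to 4 against rapamycin. In C5.2 they ranged over 0 to 1, 11 to 14, 10 to 15, 9 to 15 and 0 to 1 in that order, and in SKBR3 over 0 to 0, 8 to 10, 7 to 14, 9 to 15 and 0 to 0. For SKBR3 minus HB4a they ranged over 0 to 1, 2 to 3 and 3 to 5 for doxorubicin, rapamycin and both drugs, for SKBR3 minus C5.2 over 0 to 0, 4 to 8 and 4 to 10. They ranged over 16 to 18 for C5.2 against HB4a and 28 to 31 for SKBR3 against either line. Signal is probe set brightness, so members under the filter have no tested change.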
